A study of Mus musculus with 11 samples.

Results

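The growth factor receptor kinases are 10 genes of the 28284 in the count table: Pdgfra, Pdgfrb, Egfr, Erbb2, Erbb3, Met, Fgfr1, Fgfr2, Kit and Igf1r. They were chosen by name as well-known receptors of this class, and not by their values. Pdgfra, Pdgfrb and Fgfr1 were set together as 3 receptors typical of mesenchymal cells, and Erbb2, Erbb3 and Met as 3 receptors typical of epithelial cells, and the 2 sets were compared in each cell line.

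The samples were 11 mouse tumor cell lines, each sequenced as 1 polyA RNA library, with no wild-type or untreated line beside them. All lines came from OvTrpMyc mice, in which the dominant-negative p53 mutant R270H and Myc are driven together by the Ovgp1 promoter from a transgene knocked into the Trp53 locus (genotype label Ovgp1-Trp53-R270H-Myc). The Ovgp1 promoter is active in the secretory cells of the fallopian tube epithelium, and the cells were grown out of dissected tissue in standard RPMI medium without any treatment. By dissection site, 7 lines came from the right (ROV) or left (LOV) ovary with its fallopian tube, 2 from the uterus, 1 from a splenic tumor (F326) and 1 from a peritoneal tumor (F361). The lines came from 7 mice, and 4 of these mice gave 2 lines each. The age of each donor mouse was not given in the sources used here, and no line was stated to be a single clone. Lines of the same mouse are not independent animals, so p-values below measure the spread between lines.

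A receptor tyrosine kinase is a membrane protein that binds a growth factor outside the cell, pairs with another receptor molecule, and phosphorylates itself and its partners inside the cell. The signal is carried on by adaptor proteins to the RAS-ERK and PI3K-AKT pathways, which drive growth, survival and movement. Epithelial cells typically rely on the ERBB family and on MET, the receptor of hepatocyte growth factor. Fibroblasts, pericytes and smooth muscle rely more on the PDGF receptors, and loss of epithelial character in carcinoma cells often goes with a shift from the former to the latter.

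The libraries held 13580525 to 27044598 counts with a median of 17517765, so that 3 counts corresponded to 0.111 to 0.221 counts per 1000000 counts of the library (CPM). Library numbers in the labels separated the lines. In libraries 1 to 7 (F364 ROV, F326 splenic tumor, F364 LOV, F326 ROV, F361, F319 ROV and F318 ROV), 12 skeletal muscle fibre genes took between 5.54 and 10.05% of all counts. In libraries 8 to 11 (F318 LOV, F339 ROV, F319 uterus and F333 uterus) they took 0.122 to 0.931%. What the numbers stand for is not stated, and both uterus lines lie in the second set, together with 2 of the 7 ovary lines. Defining epithelial markers were scarce: Epcam reached at most 2.12 CPM, and the summed CPM of 10 epithelial genes ran from 3.54 in F326 splenic tumor to 156 in F319 ROV. Only 1 of these 10 genes, Krt19, had a median of at least 1 CPM per kilobase of exon, whereas all 8 fibroblast or mesenchymal markers did and their sum ran from 1594 to 34985 CPM.

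The genes of Pdgfra and Kit stand next to each other on mouse chromosome 5, with 376.7 kb between them, on the same strand. Their levels followed different orders over the lines, as described below, and sequences next to an annotated start of each are shown for that reason. RefSeq windows of 300 bases around the gene start were at hand for 7 of the 10 receptors (GRCm38.p6). In the 2 sequences that follow, both on the plus strand, capitals mark a GC box (GGGCGG, searched on both strands), a motif that 35.7% of all 32851 windows hold. The Pdgfra stretch ends at the RefSeq start that the window was built on, and RefSeq also has an earlier Pdgfra start at position 75151322.
Pdgfra, chr5:75152001-75152250: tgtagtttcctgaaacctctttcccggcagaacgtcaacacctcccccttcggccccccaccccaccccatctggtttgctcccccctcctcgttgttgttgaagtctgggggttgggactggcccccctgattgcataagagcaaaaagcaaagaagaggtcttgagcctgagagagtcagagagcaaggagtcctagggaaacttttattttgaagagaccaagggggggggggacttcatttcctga
Kit, chr5:75574737-75574915: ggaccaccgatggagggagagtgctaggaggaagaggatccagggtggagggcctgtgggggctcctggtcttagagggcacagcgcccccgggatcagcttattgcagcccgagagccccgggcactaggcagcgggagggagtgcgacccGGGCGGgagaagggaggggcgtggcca
The Pdgfra window had 51.0% G and C, below the median of 52.7% over all windows, and the Kit window had 69.0%. A GC box lay in the windows of Kit, Met, Igf1r and Egfr. Because the lines came from mice with a Myc transgene, the E-box CACGTG, the letters that MYC and MAX bind, was searched as well. It lay in the Met and Fgfr2 windows and in 7.15% of all windows. The Met copy stood beside a GC box on the plus strand. It lay past the GENCODE start of Met at position 17463800 and an earlier RefSeq start at 17463349, so inside the annotated gene. In the following 30 bases capitals mark both motifs.
Met, chr6:17463819-17463848: gggacgaacagaCACGTGctgGGGCGGgta
No window of the 7 held TATAAA, which 13.6% of all windows do, and the CCAAT box, in 37.4% of all, lay in the Erbb2 window. A match describes letters only, and binding was not measured.

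To compare different genes, CPM was divided by exon length (RPKM, CPM per kilobase of exon). By median over the 11 lines, Pdgfrb (16.2 RPKM) and Fgfr1 (14.8) stood highest, followed by Met (5.73), Erbb2 (5.63), Egfr (3.17), Pdgfra (2.98) and Igf1r (2.73). Fgfr2 (0.821), Erbb3 (0.787) and Kit (0.266) stood below 1 RPKM. The highest receptor within a line was Pdgfrb in 6 lines, Fgfr1 in 4 and Pdgfra in 1, the F326 splenic tumor, so a mesenchymal receptor led in each of the 11 lines. The order of the receptors depends on the length used, here all annotated exon bases of a gene. For Fgfr1 this is 9875 bases against 5041 in its longest transcript, and for Pdgfra 10024 against 6834. For Fgfr2 it is 10328 against 4429, but for Pdgfrb 5478 against 5423. By longest transcript, Fgfr1, Fgfr2 and Pdgfra would therefore stand higher relative to Pdgfrb. All 10 genes passed the filter on low counts.

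**Figure D1:**
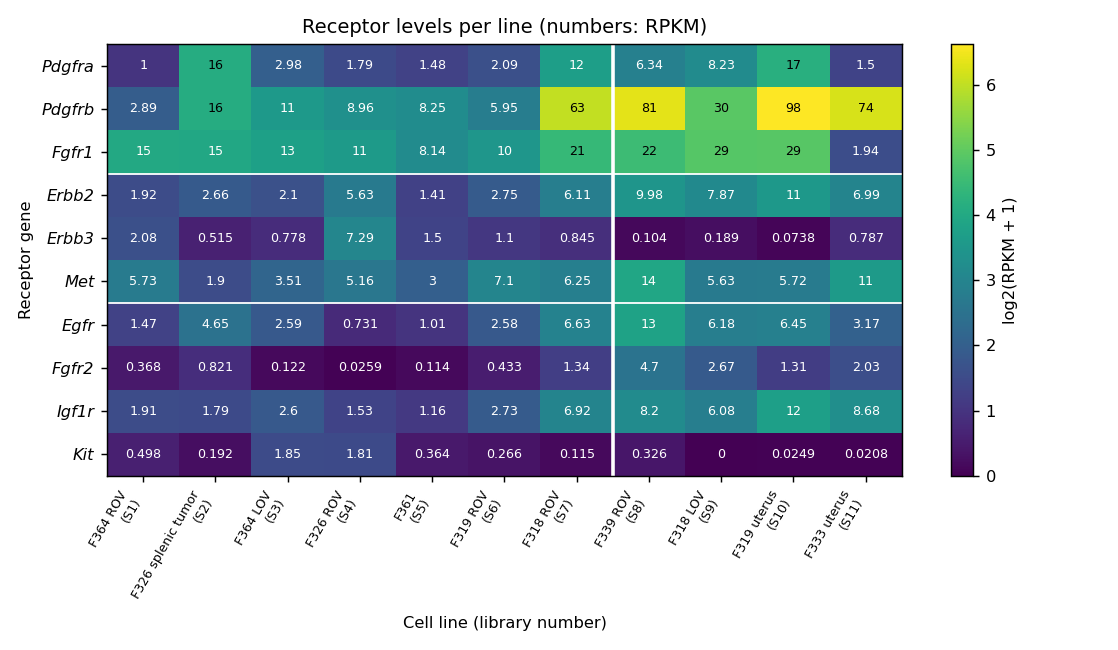
RPKM of the 10 receptors (rows: mesenchymal set, epithelial set, other) in the 11 cell lines (columns, in order of library number; the thick white line separates libraries 1 to 7 from 8 to 11). Color gives log2(RPKM + 1) and the printed numbers RPKM; Pdgfrb reaches 97.6 RPKM in F319 uterus, and Erbb3 reaches 7.29 in F326 ROV.

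Pdgfrb encodes the receptor of PDGF-B and PDGF-D and marks pericytes and fibroblasts. Its level was 15.9 CPM in F364 ROV, 32.6 in F319 ROV, 45.2 in F361, 49.1 in F326 ROV, 59.8 in F364 LOV, 88.7 in F326 splenic tumor and 346 in F318 ROV, all in libraries 1 to 7. In libraries 8 to 11 it was 162 CPM in F318 LOV, 403 in F333 uterus, 443 in F339 ROV and 535 in F319 uterus. The levels spanned 33.7-fold, and the 2 sets of libraries overlapped through F318 ROV and F318 LOV, the lines of mouse F318. In the order of lines, 1 of the 10 neighbouring pairs (F326 ROV and F361) had overlapping 95% Wilson intervals, which cover counting error only.

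Pdgfra, which binds PDGF-A, PDGF-B and PDGF-C and marks fibroblasts and other stromal cells, was high in 5 lines and low in 6. F319 uterus (172 CPM) and F326 splenic tumor (163 CPM) were highest with overlapping intervals, followed by F318 ROV (121), F318 LOV (82.5) and F339 ROV (63.6). The other lines lay between 10.02 CPM in F364 ROV and 29.9 CPM in F364 LOV. The uterus lines stood apart from each other, with 172 CPM in F319 uterus and 15.0 CPM in F333 uterus. Fewer positive cells and less RNA per cell cannot be told apart in such bulk libraries.

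Fgfr1, a receptor of fibroblast growth factors with wide expression in mesenchyme, varied less in 10 of the lines. It ran from 80.4 CPM in F361 to 288 CPM in F319 uterus in these lines. F333 uterus had 19.1 CPM, below every other line and 15.0-fold below F319 uterus. F333 uterus therefore kept a high Pdgfrb level while Pdgfra and Fgfr1 were low. Exons of Pdgfra and Fgfr1 share 4.55% and 1.66% of their bases with antisense genes, and whether counting used strand was not stated.

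In the epithelial set, Met and Erbb2 were at or above 1 RPKM in every line and Erbb3 in 4 of the 11. Erbb2, a receptor without a known ligand of its own that pairs with the other ERBB receptors, ran from 7.36 CPM in F361 to 31.9 CPM in F318 ROV in libraries 1 to 7, and from 36.4 CPM in F333 uterus to 55.0 CPM in F319 uterus in libraries 8 to 11. Met ran from 14.6 CPM in F326 splenic tumor to 108 CPM in F339 ROV, with 86.3 CPM in F333 uterus and 54.5 CPM in F319 ROV next.

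Erbb3 binds neuregulins and, having little kinase activity, signals through a partner such as ERBB2. It was 43.9 CPM in F326 ROV (95% Wilson interval 40.6 to 47.4 CPM) and 12.5 CPM in F364 ROV. The next lines, from F361 (9.06 CPM) down to F326 splenic tumor (3.10 CPM), included F333 uterus at 4.74 CPM. F318 LOV (1.14 CPM), F339 ROV (0.627 CPM) and F319 uterus (0.444 CPM) were lowest, on 26, 16 and 12 counts. The sum of the 10 epithelial markers was 5.68 CPM for F326 ROV, 47.4 CPM for F364 ROV and 156 CPM for F319 ROV, where Erbb3 was 6.63 CPM. The same lines had the 3 highest sums of the 4 mesothelial markers Msln, Upk3b, Wt1 and Lrrn4, at 73.5, 88.1 and 530 CPM, and the part of mesothelial cells in the Erbb3 counts was not tested.

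Of the 4 receptors in neither set, Egfr, the receptor of EGF and TGF-alpha, was lowest in F326 ROV at 8.28 CPM and highest in F339 ROV at 150 CPM. Igf1r, the receptor of insulin-like growth factors, ran from 19.5 CPM in F361 to 45.8 CPM in F319 ROV over 6 lines of libraries 1 to 7. It was 102 CPM in F318 LOV, 116 in F318 ROV, 138 in F339 ROV, 146 in F333 uterus and 208 in F319 uterus. Fgfr2, whose isoforms serve epithelium or mesenchyme, spanned the widest range of the genes detected in every line, with 0.267 CPM (4 counts) for F326 ROV and 48.5 CPM for F339 ROV. Gene counts do not separate its isoforms, and 3.04% of its annotated exon bases are shared with Ctbp2 on the same strand.

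Kit encodes the receptor of stem cell factor, a receptor known from germ cells, melanocytes, blood progenitors and mast cells. F364 LOV (16.5 CPM) and F326 ROV (16.2 CPM) were highest and did not differ beyond counting error. The remaining lines of libraries 1 to 7 lay between 1.03 CPM in F318 ROV and 4.44 CPM in F364 ROV. F339 ROV had 2.90 CPM, F319 uterus 0.222 CPM (6 counts) and F333 uterus 0.186 CPM (4 counts), and F318 LOV had no count, for which the floor of 3 counts is 0.131 CPM. Pdgfra was below 30 CPM in the 2 lines with the highest Kit, and the line with the highest Pdgfra, F319 uterus, was among the 3 lowest for Kit.

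Mast cell genes also differed between the lines. The sum of Cpa3, Mcpt4, Tpsb2 and Fcer1a ranged from 2.51 to 17.0 CPM over libraries 1 to 7, highest in F326 ROV. It was at most 0.836 CPM in the other 4 libraries. Fcer1a was at or near 0 in every line, with at most 0.254 CPM. F364 LOV had 7.91 CPM and F319 ROV 11.5 CPM of these genes, while Kit was 16.5 and 2.37 CPM there. In F339 ROV the 4 genes summed to 0.157 CPM beside 2.90 CPM of Kit. The part of mast cells in the Kit counts was not tested.

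The score of each line was the mean log2(RPKM + 1) of Pdgfra, Pdgfrb and Fgfr1 minus that of Erbb2, Erbb3 and Met. It was 3.11 in F319 uterus, 2.73 in F326 splenic tumor, 2.53 in F318 ROV, 2.30 in F318 LOV and 2.09 in F339 ROV. F364 LOV had 1.56, F361 1.04, F319 ROV 0.64, F333 uterus 0.55 and F364 ROV 0.35, and F326 ROV had 0.0058, where the 2 sets were level. The score thus favoured the mesenchymal receptors in 10 lines, with a median of 1.56 and an SD of 1.07 over the 11 lines. With the median of the 3 genes in place of their mean, F333 uterus had -1.45, since Pdgfrb alone was high there. F326 ROV had -0.062 with a pseudocount of 0.1, 0.32 with CPM in place of RPKM and 0.38 with the length of the longest transcript. As a ratio of summed RPKM, the mesenchymal set exceeded the epithelial set by 1.22-fold in F326 ROV and by 9.30-fold in F326 splenic tumor, the ends of the range.

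Erbb3 did not follow the other 2 epithelial receptors over the 11 lines, which share the split in library numbers. Pearson's r of log2(CPM + 1) was -0.51 between Erbb2 and Erbb3, -0.23 between Erbb3 and Met, and 0.64 between Erbb2 and Met. It was 0.84 between Erbb2 and Pdgfrb. In the mesenchymal set, r was 0.63 between Pdgfra and Pdgfrb, 0.64 between Pdgfra and Fgfr1, and 0.11 between Pdgfrb and Fgfr1. Within the 7 lines of libraries 1 to 7, all 3 epithelial pairs were positive: 0.30 for Erbb2 and Erbb3, 0.39 for Erbb3 and Met, and 0.42 for Erbb2 and Met. There Erbb2 and Pdgfrb had 0.62, and the mesenchymal pairs had 0.57 to 0.83. These values are given as a description.

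The spread of the score came mostly from the mesenchymal side. The mean of the 3 mesenchymal receptors ran from 2.32 in F364 ROV to 5.24 in F319 uterus (SD 1.02 over 11 lines), and that of the 3 epithelial receptors from 1.34 in F326 splenic tumor to 2.80 in F326 ROV (SD 0.45). Among the 9 pairs of a mesenchymal and an epithelial receptor, the mesenchymal gene had the higher RPKM in all 9 pairs in F326 splenic tumor, F318 ROV, F318 LOV and F319 uterus, and in 5 pairs in F364 ROV and F333 uterus.

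**Figure D2:**
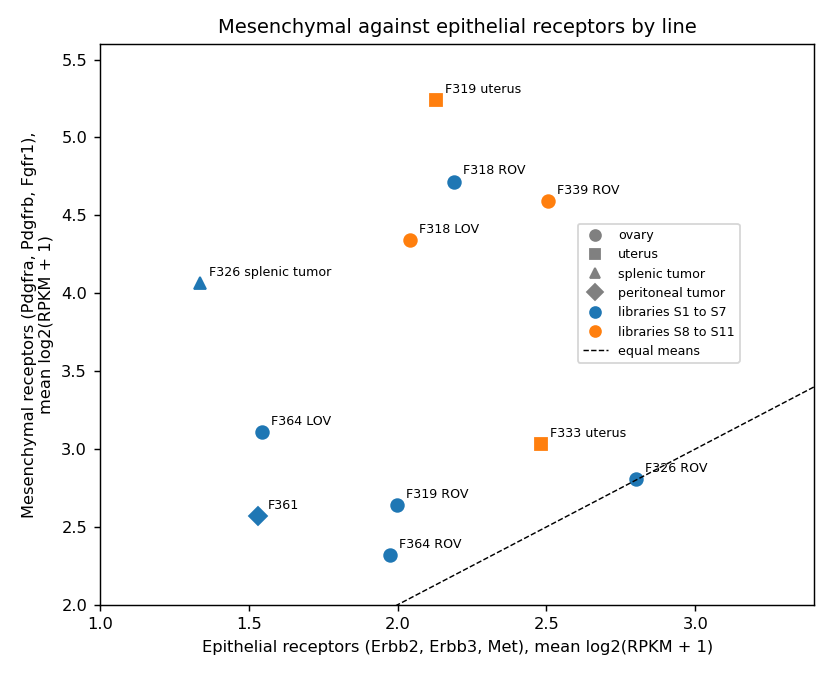
Mean log2(RPKM + 1) of the 3 mesenchymal receptors (vertical) against that of the 3 epithelial receptors (horizontal), 1 point per cell line, shape by dissection site and color by library numbers. The dashed line marks equal means: F326 ROV lies on it at 2.80 for both sets, the other lines lie above it, and F319 uterus is highest at 5.24.

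The pairs of lines from 4 mice show how far receptors differed within an animal. There is 1 library per line, so these are differences between 2 libraries with no replicate check. The pair from mouse F326, splenic tumor and right ovary, differed by over 1 on the log2(CPM + 1) scale for 7 of the 10 receptors, against 21.5% of the 17317 genes that passed the filter. Both lines carried library numbers 1 to 7 with like muscle fibre shares (8.37% and 9.54%). Other marker sums differed: fibroblast or mesenchymal markers were 6441 CPM in the splenic tumor line and 2250 CPM in the ovary line, and the 4 mesothelial markers were 0.633 and 73.5 CPM. Their part in the receptor differences was not tested. The scale compresses genes of low level, and the share over all genes is not matched to the receptors in level.

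In the F326 pair the receptors went in opposite directions by kind. Pdgfra (163 against 17.96 CPM), Egfr (52.7 against 8.28 CPM) and Fgfr2 (8.48 against 0.267 CPM) were higher in the splenic tumor line. Erbb3 (3.10 against 43.9 CPM), Kit (1.71 against 16.2 CPM), Met (14.6 against 39.6 CPM) and Erbb2 (13.9 against 29.3 CPM) were higher in the ovary line. Pdgfrb, Fgfr1 and Igf1r were also higher in the splenic tumor line but by less, with differences of 0.84, 0.39 and 0.22 on the log2(CPM + 1) scale. All 3 mesenchymal receptors thus lay on one side and all 3 epithelial receptors on the other, in this pair and in none of the other 3. In the F319 pair Erbb2 was higher in the same line as the PDGF receptors, and in the F364 and F318 pairs Fgfr1 was higher in the line with less of them.

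The F364 pair, right and left ovary in the same set of libraries, differed by over 1 for 5 of 10 receptors against 6.33% of all genes. Pdgfrb (15.9 against 59.8 CPM), Kit (4.44 against 16.5 CPM) and Pdgfra (10.02 against 29.9 CPM) were higher in the left ovary line, and Erbb3 (12.5 against 4.68 CPM) and Fgfr2 (3.81 against 1.27 CPM) in the right. Fgfr1 and Erbb2 differed by only 0.25 and 0.12 on the log2(CPM + 1) scale. Marker sums in the right and left line were 88.1 and 6.96 CPM for mesothelial, 47.4 and 6.27 CPM for epithelial and 246 and 400 CPM for endothelial genes, and their part was not tested.

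The F319 pair, right ovary and uterus, lay on different sides of the library numbers and differed by over 1 for 9 of 10 receptors, against 43.9% of all genes. Pdgfrb was 32.6 CPM in the ovary line and 535 CPM in the uterus line, the widest difference of any pair (3.99 on the log2(CPM + 1) scale), and Met alone differed by less than 1 (54.5 against 44.0 CPM). Marker sums in the ovary and uterus line were 530 and 0.629 CPM for mesothelial, 156 and 21.2 CPM for epithelial, and 275.5 and 5.69 CPM for endothelial genes. They were 5042 and 19371 CPM for fibroblast, and 1262 and 3262 CPM for smooth muscle and pericyte genes. Within the last 2 lists, Col1a1, Col3a1, Vim, Fn1, Acta2 and Cnn1 were higher in the uterus line, and Dcn, Lum, Myh11 and Rgs5 were lower. The part of these cell types was not tested.

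The F318 pair lay on different sides too, with 3 of 10 receptors over 1 against 33.3% of all genes. These 3 were Pdgfrb (346 CPM in the right and 162 CPM in the left ovary line), Erbb3 (5.08 and 1.14 CPM) and Kit (1.03 and 0 CPM). Egfr (75.1 and 70.0 CPM), Met (48.0 and 43.3 CPM) and Igf1r (116 and 102 CPM) were close in the 2 F318 lines. Endothelial markers summed to 186 and 1.22 CPM and fibroblast markers to 15454 and 32460 CPM, and their part was not tested.

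**Figure D3:**
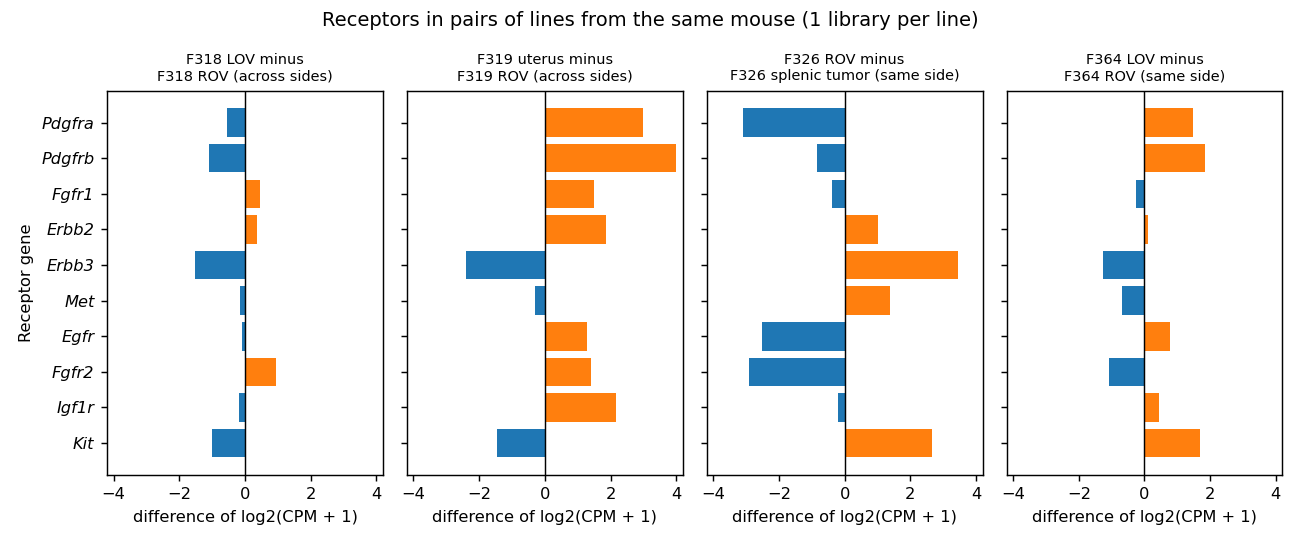
Difference in log2(CPM + 1) of each receptor between the 2 lines of each of 4 mice, named over each panel (orange: higher in the line named first, blue: lower). In the F326 pair the bars of Pdgfra and Erbb3 point in opposite directions (3.11 lower and 3.45 higher in the ovary line), and the bars of the F318 pair are short, with a median length of 0.50.

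The receptors were also set against the library numbers. Erbb2 was higher in all 4 lines of libraries 8 to 11 than in all 7 lines of libraries 1 to 7. This is 1 of 10 receptors, where 24.4% of the 17317 genes lay entirely higher. No receptor lay entirely lower, where 16.3% of all genes did. These shares depend on the scaling: on library totals 4227 genes lay entirely higher and 2827 entirely lower. With totals scaled by the TMM normalization of edgeR it was 3150 and 3605, and Erbb2 was again the only receptor. All such counts and shares in this report use library totals. By medians, 8 of the 10 receptors were higher in libraries 8 to 11, as were 58.1% of all genes, from 1.65-fold for Met (39.6 and 65.1 CPM) to 8.62-fold for Pdgfrb (49.1 and 423 CPM). Erbb3 (6.63 and 0.881 CPM) and Kit (3.24 and 0.204 CPM) were lower. The median log2 difference was 1.47 over the receptors and 0.25 over all genes, and since the muscle fibre genes took up to 10.05% of counts only in the first set, the 2 sets differ in composition as well. Fibroblast or mesenchymal markers summed to between 1594 and 15454 CPM in the first set and between 19371 and 34985 CPM in the second. For 6 smooth muscle and pericyte markers the sums were 505 to 2875 CPM and 3193 to 4696 CPM, so neither sum overlapped between the sets. Single markers went both ways. Of 8 fibroblast or mesenchymal markers, 4 lay entirely higher and 2 entirely lower in libraries 8 to 11, against 24.4% and 16.3% of all genes. Of the 6 smooth muscle and pericyte markers, 2 lay entirely higher and 2 entirely lower. Dcn (160 to 323 CPM in the first set, 12.1 to 31.8 CPM in the second) and Rgs5 (155 to 344 and 10.5 to 42.2 CPM) were among the lower ones. The part of such cells in the receptor levels was not tested.

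Several of the overlaps rested on 1 line. The muscle fibre share of F318 ROV was the lowest of libraries 1 to 7 (5.54%), and its fibroblast markers summed to 15454 CPM against 1594 to 6441 CPM in the other 6. Without F318 ROV, Pdgfrb, Erbb2, Fgfr2 and Igf1r lay entirely higher in libraries 8 to 11, 4 of 10 receptors against 28.6% of all genes. Without F333 uterus, Fgfr1 and Erbb2 lay entirely higher (28.8% of all genes) and Erbb3 entirely lower (17.7% of all genes). Without F318 LOV, 3 receptors (Pdgfrb, Erbb2 and Igf1r) lay entirely higher, against 26.4% of all genes. Without F319 uterus it was 2 (Erbb2 and Fgfr2), against 27.5%. Without F339 ROV, Erbb2 lay entirely higher, against 26.1% of all genes, and Kit entirely lower, against 18.1%.

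The median score was 1.04 in libraries 1 to 7 (0.0058 to 2.73) and 2.19 in libraries 8 to 11 (0.55 to 3.11), with ranges that overlapped.

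**Figure D4:**
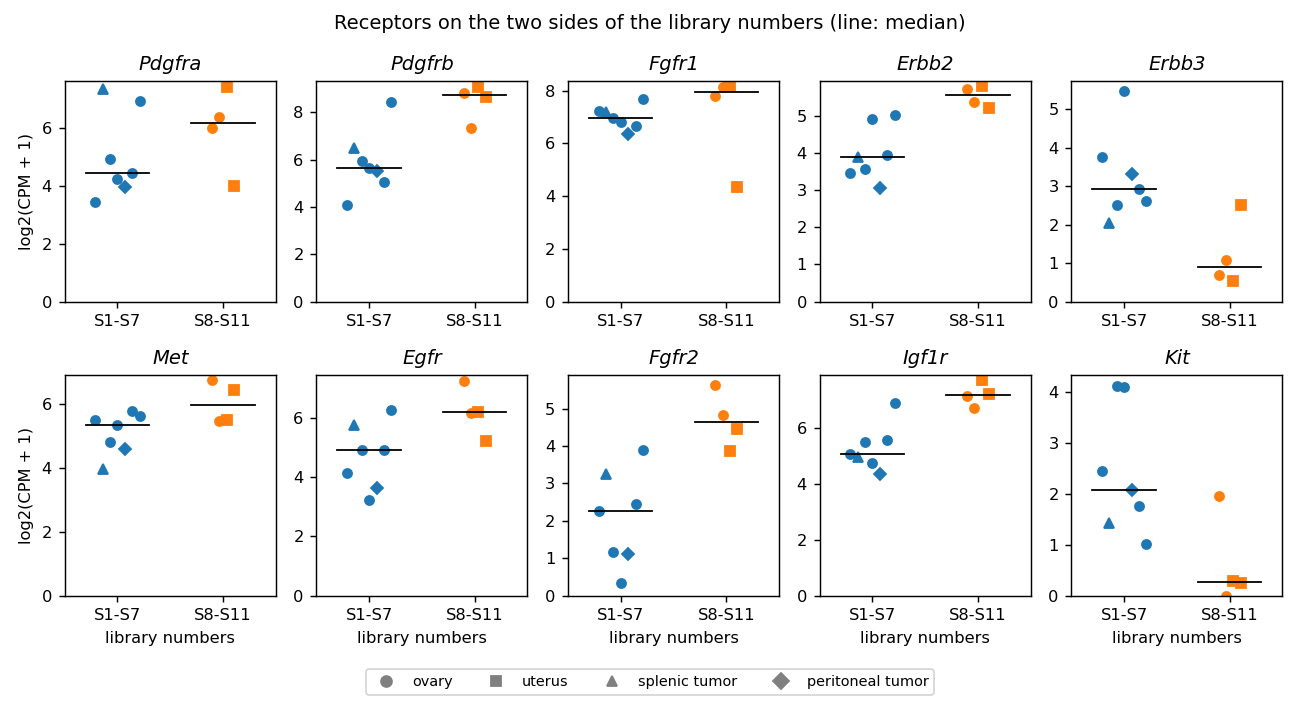
log2(CPM + 1) of each receptor in libraries 1 to 7 (blue, 7 lines) and 8 to 11 (orange, 4 lines), 1 point per line, shape by dissection site, with the median of each set as a bar. Only Erbb2 separates the sets (at most 31.9 CPM and at least 36.4 CPM), and the highest blue point of Pdgfrb and of Igf1r is F318 ROV.

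The design allows 1 test between organs, the 2 uterus lines against the 7 ovary lines, which asks whether receptor levels go with the tissue a line came from. No receptor passed at an adjusted p of 0.05 (edgeR's quasi-likelihood test, Benjamini-Hochberg over all 17446 genes tested), and no other gene did (0 called, 0%). At an unadjusted p under 0.05, edgeR had 823 genes higher in the uterus lines (4.72%) and 1485 lower (8.51%), and these held Igf1r and Kit. DESeq2 called 1297 genes, with 196 higher (1.12%) and 1101 lower in the uterus lines (6.31%), and Kit was its only receptor.

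Igf1r was 146 and 208 CPM in the uterus lines and 25.6 to 138 CPM, with a median of 45.8, in the ovary lines. Both uterus lines lay above all 7 ovary lines, as for 4.96% of all genes, and none of the other 9 receptors separated in that direction. The log2 fold change was 1.19 (SE 0.50, edgeR adjusted p = 0.359). Against the 2 ovary lines in libraries 8 to 11 alone (102 and 138 CPM) it was 0.56, and the intervals of F333 uterus and F339 ROV overlapped.

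Kit was 0.186 and 0.222 CPM in the uterus lines and 0 to 16.5 CPM, with a median of 2.90, in the ovary lines. The groups overlapped through F318 LOV, the ovary line without a Kit count, and no receptor lay entirely lower in the uterus lines, as 3.04% of all genes did. The log2 fold change was -5.23 (SE 2.25, edgeR adjusted p = 0.359), and DESeq2 gave -5.34 (adjusted p = 0.0221). With the library numbers as a term it was -2.72 in edgeR (adjusted p = 1).

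For the mesenchymal set the log2 fold changes were 1.51 for Pdgfrb (SE 0.93), 0.76 for Pdgfra (SE 0.88) and -0.37 for Fgfr1 (SE 0.71). The 2 uterus lines were far apart for Pdgfra and Fgfr1, and the direction rested on 1 of them: Pdgfra was -1.69 without F319 uterus, and Fgfr1 was 0.53 without F333 uterus. With the library numbers as a term, Pdgfrb was 0.69 and Pdgfra 0.35, and within libraries 8 to 11 they were 0.65 and 0.29. With that term Fgfr1 was -0.73. For the epithelial set the fold changes on the log2 scale were 0.63 for Erbb2 (SE 0.52), 0.22 for Met (SE 0.42) and -2.29 for Erbb3 (SE 1.71). With the library numbers as a term, Erbb2 was 0.027, Met turned to -0.11 and Erbb3 turned to 1.68. The Erbb3 value was -1.18 without F326 ROV and -4.98 without F333 uterus. Egfr was -0.07 (SE 0.79) and Fgfr2 0.31 (SE 1.28). With the library numbers as a term they were -0.97 and -1.05, and within libraries 8 to 11 they were -1.02 and -1.10. With the mouse as a block, where mouse F319 alone gave lines of both organs, Pdgfrb was 3.76, Pdgfra 2.77, Fgfr1 1.23, Erbb2 1.67, Erbb3 -4.15, Met -0.59, Egfr 1.04, Fgfr2 1.32, Kit -3.65 and Igf1r 1.91, with edgeR adjusted p of at least 0.470 and 0 genes called. Such wide errors leave sizeable differences undetectable with 2 uterus lines.

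**Figure D5:**
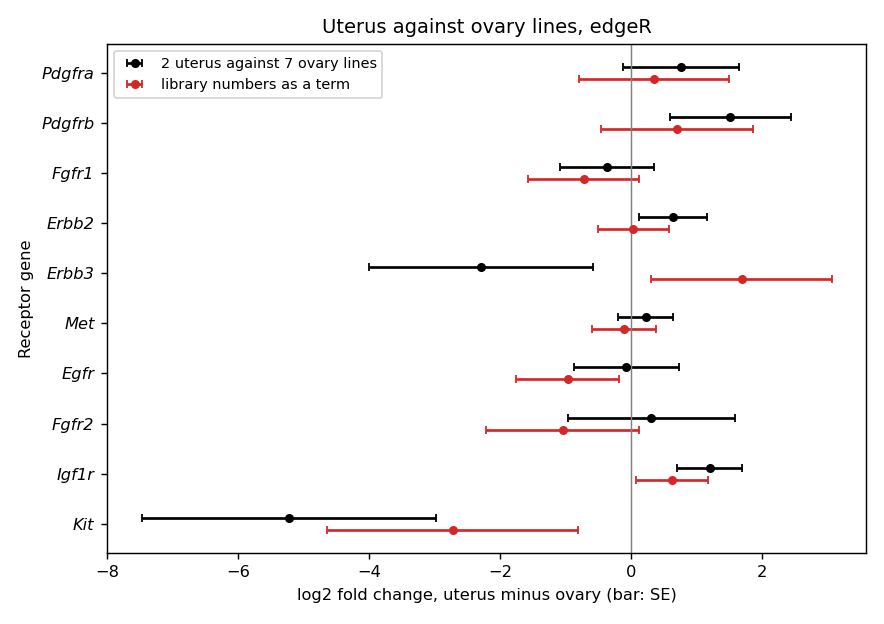
log2 fold change of each receptor between the 2 uterus and the 7 ovary lines (black), and with the library numbers as a term in the fit (red); bars are standard errors from edgeR. The black values run from -5.23 for Kit to 1.51 for Pdgfrb, and the red value of Erbb3 (1.68) lies on the other side of 0 from the black one (-2.29).

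RNA of ligands of these receptors was found in the same libraries. Of 32 ligand genes in the table, 11 had a median of at least 1 RPKM: Pdgfa (18.7), Hbegf (5.29), Fgf7 (4.17), Fgf1 (3.94), Kitl (3.83), Pdgfb (2.75), Fgf2 (2.58), Pdgfc (2.25), Egf (1.65), Igf2 (1.40) and Pdgfd (1.28). Pdgfa, the ligand of PDGFRA, had the highest median of the list and ranged from 7.65 to 34.2 RPKM. Kitl, which encodes stem cell factor, was 8.03 to 87.6 CPM, highest in F319 uterus, where Kit was 0.222 CPM. Hgf, the ligand of MET, had a median of 0.0881 RPKM and reached 9.15 RPKM in F318 LOV, and Epgn, Fgf4, Fgf8, Fgf16, Fgf17 and Fgf20 had a median of 0.

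Ligands differed in direction over the library numbers. Pdgfc reached 33.7 to 102 CPM in the lines of libraries 8 to 11, against 1.55 to 14.6 CPM in the others, and Fgf2 was 25.0 to 59.3 and 7.35 to 24.5 CPM. Egf (0.611 to 3.44 and 16.8 to 42.9 CPM), Fgf1 (0.437 to 2.65 and 13.9 to 67.8 CPM) and Igf2 (0.349 to 4.82 and 7.48 to 17.0 CPM) were lower in libraries 8 to 11. Over the 25 ligands that passed the filter, 2 lay entirely higher (24.4% of all genes) and 5 entirely lower (16.3% of all genes) in libraries 8 to 11. Of the 26 ligands tested between uterus and ovary lines, edgeR called none, with 1 higher and 5 lower at an unadjusted p under 0.05, against 4.72% and 8.51% of all genes. DESeq2 called none higher and 6 lower, against 1.12% and 6.31% of all genes.

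Of 42 other receptor tyrosine kinases in the table, 35 passed the filter. Axl, a receptor of GAS6 often high in mesenchymal tumor cells, had the highest median (46.6 RPKM), above every member of the set of 10, and ran from 41.5 CPM to 1448 CPM in F333 uterus. Insrr, Flt3, Alk, Epha6 and Epha8 had a median of 0. In libraries 8 to 11, 3 lay entirely higher (Axl, Ephb3 and Ephb4) and 10 entirely lower, against 24.4% and 16.3% of all genes. The latter held Kdr (0.786 to 3.16 against 4.56 to 51.1 CPM), Tie1 (0.262 to 2.04 against 18.3 to 70.3 CPM) and Tek (0.555 to 1.86 against 5.95 to 24.5 CPM), which mark endothelium, and Musk (0.218 to 0.941 against 6.20 to 41.8 CPM), the receptor of the neuromuscular junction. The 5 endothelial markers (Pecam1, Cdh5, Emcn, Cldn5 and Esam) had sums of 163 to 400 CPM in the first set of libraries, against 1.22 to 225 CPM in the second, and 3 of the 5 lay entirely lower there. The part of other cell types in these counts was not tested. None of the 35 was called between organs by edgeR, with 2 higher and 9 lower in the uterus lines at an unadjusted p under 0.05, against 4.72% and 8.51% of all genes. DESeq2 called 1 higher and 9 lower, against 1.12% and 6.31% of all genes.

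Inside the cell, all 28 adaptor and relay genes had a median of at least 1 RPKM, from 1.79 RPKM for Braf to 49.0 RPKM for Map2k2, a kinase that activates ERK. Of these, 10 lay entirely higher and 3 entirely lower in libraries 8 to 11, against 24.4% and 16.3% of all genes. Frs2, the adaptor of FGF receptors, was 89.5 to 139 CPM there against 21.5 to 53.4 CPM. Among the 28 genes, edgeR had 2 higher and 1 lower in the uterus lines at an unadjusted p under 0.05, against 4.72% and 8.51% of all genes, and neither edgeR nor DESeq2 called any.

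Of 18 feedback and target genes of ERK signaling, inhibitors of the pathway among them, 8 lay entirely higher and none entirely lower in libraries 8 to 11, against 24.4% and 16.3% of all genes. The widest ratio of medians was that of Fosl1, a transcription factor of the AP-1 family, at 79.9 against 3.29 CPM. Emp1, a membrane protein, was 671 against 71.5 CPM, and Ccnd1, which encodes cyclin D1, 279 against 64.2 CPM. By RPKM, Ier3 was highest in this list (55.8) and Etv1 lowest (0.0904). None was called between organs by edgeR or DESeq2, and edgeR had 3 higher and none lower at an unadjusted p under 0.05, against 4.72% and 8.51% of all genes.

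The 15 receptor inhibitors ranged in median from 0.608 RPKM for Il17rd to 23.8 RPKM for Errfi1, which blocks the kinase of EGFR and ERBB2. In libraries 8 to 11, 2 lay entirely higher and none entirely lower, against 24.4% and 16.3% of all genes. Cbl, the ubiquitin ligase that removes activated receptors, was 49.1 to 85.4 CPM against 11.01 to 48.9 CPM. Ptpn2, a tyrosine phosphatase, was 35.7 to 62.0 CPM against 12.4 to 34.1 CPM. None was called between organs by edgeR or DESeq2, and none had an unadjusted p under 0.05 in edgeR.

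For each receptor, the gene with the most similar pattern was found by Pearson's r of log2(CPM + 1) over the 11 lines, which share the split in library numbers. Igf1r went most closely with Plcb3 (r = 0.991) and Zswim6 (0.989), and Fgfr2 with Tk2 (0.978) and Sars (0.970). Pdgfrb went with Adamts12 (0.963) and Micall2 (0.956), Erbb2 with 4930522L14Rik (0.969) and Tmem9 (0.962), and Met with Ice1 (0.948) and Fam53c (0.932). Egfr went with Hoxb6 and Aebp1 (both 0.947), Erbb3 with Inpp5j (0.947) and Gm17040 (0.929), Kit with Gm24447 (0.947) and Snx29 (0.926), Fgfr1 with Zfp422 (0.944) and Fmnl2 (0.938), and Pdgfra with Ropn1l and Pi15 (both 0.914). These genes were picked as the highest of 17317, and r is given as a description.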

How the data were processed

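The libraries, 1 per cell line and 11 in all, were prepared with a directional polyA kit. By the paper, reads were aligned with STAR to mm10 (GRCm38) with an Ensembl annotation. PCR duplicates were then removed with SAMtools RmDup, and featureCounts was used for counting. Tool versions and strand setting were not given in the sources used here. The authors deposited the unnormalized counts of each gene. From these counts, CPM was computed on the library total, and RPKM on the union exon length in GENCODE M21 (GRCm38). That is a different annotation from the one named in the paper, and 27092 of the 28284 symbols had a unique gene model in it. Log2 values carry a pseudocount of 1. Organ groups came from the line names. The 2 uterus and 7 ovary lines were compared with edgeR 4.0.16 (quasi-likelihood test, TMM, filterByExpr, Benjamini-Hochberg, adjusted p of 0.05) in R 4.3.3, and DESeq2 1.42.0 was an alternative. The script was tested on simulated data. Library numbers 1 to 7 and 8 to 11, the mouse pairs and the receptor score were described without a test. Intervals are 95% Wilson intervals and, like the floor of 3 counts, cover counting error only. The receptors, gene lists and library split were chosen with earlier results of these data known. Genes named beyond the 10 were the highest and lowest median of a list, ligands of at least 1 RPKM, genes past the test, non-overlapping genes among the widest differences of medians (as a log2 ratio or in CPM), and the 2 most similar genes per receptor. Genes named outside that rule were picked after their values were seen: Hgf, Tek, Ephb4 and the markers, Krt19 and Epcam included. Some genes of the lists are not reported here.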

Additional observations from a re-analysis of the deposited data

Results flagged for a closer look

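Among the 7 ovary lines, 2 of 11 measures (the 10 receptors and the score) had a line far from the others by Dixon's criterion. Its rate of about 1 group in 20 flagged by chance holds for independent values with a normal distribution. Here the receptors were taken as CPM without a log scale, and mice F364 and F318 each gave 2 of the lines. The chance rate is thus not known for these values, and the flags describe gaps on the CPM scale only. Erbb3 was 43.9 CPM in F326 ROV, where the next line had 12.5 CPM, a gap that made up 0.726 of the whole range. Met was 108 CPM in F339 ROV, where the next line had 54.5 CPM, a gap of 0.660 of the range. For 7 lines the criterion is 0.568.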

How the results depend on the processing

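The uterus against ovary count of called genes, 0 in edgeR, was 1297 with DESeq2 and 2 without a filter on low counts, and ranged from 0 to 1 when each line was left out in turn. Of 169 receptor values under the alternatives, 151 kept direction and side of the threshold, and Kit passed it only with DESeq2 (-5.34). Leaving out each line in turn, Fgfr1 ranged from -3.18 to 0.53, Met from -0.46 to 0.71, Egfr from -0.54 to 0.35 and Fgfr2 from -0.15 to 0.98. Erbb3 ranged from -4.98 to -1.18. In all, 17 values turned sign. Without F319 uterus, Pdgfra was -1.69. Without F333 uterus, Fgfr1 was 0.53, Met -0.46, Egfr 0.29 and Fgfr2 -0.15. Egfr was 0.00026 without F318 ROV and 0.35 without F339 ROV. In libraries 8 to 11 alone, where 9 receptors could be tested, Erbb2 was -0.025, Erbb3 1.63, Met -0.16 and Fgfr2 -1.10. With library numbers as a term, Erbb3 was 1.68, Met -0.11 and Fgfr2 -1.05. None of these 10 receptors passed the threshold in edgeR under any alternative, and the cause of the turns was not tested. The median score over lines stayed between 1.04 and 2.32 under its 20 alternatives, within 1 SD of 1.56, while the score of a single line moved by up to 1.99 (F333 uterus, median of the 3 genes). The count of receptors whose library sets do not overlap ranged from 1 to 4 when each line was left out, a check added after seeing the data, and the count over all genes stayed within 1.5 times. With the mouse as a block, a fit added after seeing the data that rests on mouse F319, Fgfr1 (1.23), Met (-0.59) and Egfr (1.04) turned sign and 0 genes were called. Kit and Erbb3 rest on few counts in libraries 8 to 11, which limits their values there.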
